A study of Homo sapiens with 4 samples.

Results

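The HOXA genes HOXA3, HOXA5, HOXA7, HOXA9 and HOXA10, their homeodomain cofactors MEIS1 and PBX3, and the leukaemia cofactor genes MEF2C, LMO2 and JMJD1C were taken by symbol from the deposited count table. All 10 symbols matched 1 row each of 57992, and all 10 genes passed the filter on low counts that left 15193 genes. The libraries came from MOLM13, an established human acute myeloid leukaemia line with a KMT2A fusion, in a derivative that the labels name VEN-R, for resistance to venetoclax, a BCL2 inhibitor. Doxycycline was given in every group. In 2 libraries it induced control hairpin RNA (shCtrl, genotype WT), and in 2 libraries hairpin RNA against PRMT9 (shPRMT9, genotype PRMT9 knockdown). PRMT9 encodes a protein arginine methyltransferase. No library without doxycycline and no parental, venetoclax-sensitive library was analysed here. Whether the 2 libraries of a group were separate cultures, or carried the same hairpin, is not given in the sources used here. The SDs and p-values thus measure the spread between these libraries only, which may be technical.

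HOX genes encode homeodomain transcription factors that lie in clusters, and the late-numbered HOXA genes are active in blood stem and progenitor cells and are normally shut down as myeloid cells mature. Fusions of KMT2A keep HOXA9, HOXA10 and MEIS1 transcribed in leukaemia, and the HOX proteins bind DNA together with the TALE-class homeodomain proteins of the MEIS and PBX families. MEF2C, LMO2 and JMJD1C are not homeodomain proteins, and each has been tied to the same leukaemias as a transcription factor, a bridging adaptor and a chromatin regulator.

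The label and the target were checked first. PRMT9 counts were 398 and 406 in the control hairpin libraries but 81 and 78 in the PRMT9 hairpin libraries. Its scaled level after knockdown was 17.9% of the control level (edgeR adjusted p = 5.24e-13). Total counts ranged from 28592902 to 33845172 per library. All 13 myeloid and leukaemia markers examined were detected, with a summed level of 1849 to 1863 CPM (counts scaled to the library total) in the controls and 2640 to 2645 CPM in the knockdown libraries. Of these 13, 11 rose and 2 fell, where 33.4% of all tested genes rose and 34.5% fell at an edgeR adjusted p below 0.05. ITGAM, an integrin of mature myeloid cells, rose by 1.83 on the log2 scale, CSF1R, the receptor for the macrophage growth factor, by 1.86 and PTPRC by 0.84, whereas MPO fell by 0.47 and FCGR1A fell by 0.62. The summed level of 6 lymphoid markers was 0.694 to 0.847 CPM in the controls and 0.744 to 0.884 CPM after knockdown, and HBB, HBA1 and PF4 had 0 counts. The sum of 6 erythroid and megakaryocyte markers was 0.331 and 0.318 CPM in the controls and 0.808 and 0.736 CPM after knockdown, nearly all from ITGA2B, a megakaryocyte integrin gene with 9 to 25 counts that rose by 1.18. Of 6 epithelial and stromal markers, EPCAM and COL3A1 had 0 counts, and the sum, nearly all from the keratins KRT8 and KRT18, went from 27.6 and 28.0 CPM to 37.1 and 36.1 CPM. The part that these markers have in the changes below was not tested. In bulk RNA, fewer cells of a type and less RNA per cell cannot be told apart.

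The 5 HOXA genes lie within 1 cluster on the minus strand of chromosome 7 (GRCh38), with HOXA3 at 27106184 to 27152581, HOXA5 at 27141052 to 27143668, HOXA7 at 27153716 to 27157936, HOXA9 at 27162435 to 27175180 and HOXA10 at 27170591 to 27180261. MEIS1 lies on chromosome 2 (66433452 to 66573869, plus strand), PBX3 on chromosome 9 (125747345 to 125967377, plus), MEF2C on chromosome 5 (88717117 to 88904257, minus), LMO2 on chromosome 11 (33858576 to 33892289, minus) and JMJD1C on chromosome 10 (63167221 to 63521850, minus). Values are sums over all exons of a gene, so the promoters and isoforms in use could not be told apart.

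The sequences just before the start sites of HOXA7, HOXA9 and HOXA10 are shown because these 3 neighbours did not change in the same direction. Each line gives the 160 bases before a RefSeq start (GRCh38.p14, minus strand, 5′ to 3′), for HOXA10 the start nearer to HOXA9. Capitals mark 3 words in either orientation. One is the CCAAT box. Another is the TATA word, TATAAA. The last is the core TTTACG preferred by late HOX proteins.
HOXA9, chr7:27165538-27165697: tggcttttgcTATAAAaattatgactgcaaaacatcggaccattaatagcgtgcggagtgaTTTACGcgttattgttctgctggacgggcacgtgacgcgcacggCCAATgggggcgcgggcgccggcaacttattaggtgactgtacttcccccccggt
HOXA10, chr7:27174321-27174480: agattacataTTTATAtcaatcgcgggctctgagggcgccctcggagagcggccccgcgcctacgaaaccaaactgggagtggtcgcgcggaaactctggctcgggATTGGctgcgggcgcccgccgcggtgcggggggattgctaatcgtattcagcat
HOXA7, chr7:27156676-27156835: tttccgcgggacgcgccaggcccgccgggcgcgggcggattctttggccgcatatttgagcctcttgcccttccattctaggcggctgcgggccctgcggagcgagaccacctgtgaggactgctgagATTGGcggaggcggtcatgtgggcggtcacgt

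In both the HOXA9 window, in sense, and the HOXA10 window, in antisense, the TATA word began 150 bases before the start. The CCAAT box began 55 bases before it in HOXA9, in sense, and 54 bases before it in HOXA10, in antisense. HOXA7 had a CCAAT box in antisense 32 bases before its start and no TATA word. Aligned end to end, the HOXA9 and HOXA10 windows were identical at 48.7% of columns, against 46.7% for HOXA9 with HOXA7 and 45.0% for HOXA10 with HOXA7, so they were hardly more alike than the other pairs.

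In all, 11 words were searched on both strands over the 250 bases before each of 35116 RefSeq starts, and the 3 shown in capitals were picked after their hits were seen. Of the 10 genes, 8 had a RefSeq window, 23 windows in all. The CCAAT box occurred in 32.0% of all windows and in 7 of these 23, and the TATA word in 10.7% and in 4. The core TTTACG occurred in 2.68% of all windows and in 1 of the 23, that of HOXA9. TGACAG, a word bound by MEIS proteins, occurred in 4577 of all windows and in 4 of the 23, those of PBX3 and of 3 MEF2C starts. TGATNNAT, a joint word of PBX and HOX proteins, occurred in 6.47% of all windows and in 1 of MEF2C. The homeodomain word TAATTA occurred in 4.35% and in 1 of MEF2C. The E-box CACGTG occurred in 6.34% and in 3 of the 23, and it shares no base with the 3 words in capitals in HOXA9, where it began 71 bases before the start. The GC box GGGCGG occurred in 42.6% and in 8 of the 23. A further late HOX word, TTTATGG, occurred in 2.30% of all windows. The MEF2 word, which is not spelled out here, occurred in 0.327%. CGCATGCGC, bound by NRF1, occurred in 1.64%, and these last words were in 0 of the 23. These are matches of letters, and binding was not measured.

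Knockdown of PRMT9 was compared with the control hairpin to ask whether this set of genes moved with it. It did not move in 1 direction. HOXA3 and LMO2 rose about as much as each other, JMJD1C, PBX3, MEIS1 and HOXA9 rose by less, HOXA10, HOXA7 and MEF2C fell, and HOXA5 did not pass the test. In all, 9 of 10 were called changed by edgeR's quasi-likelihood test (6 rose and 3 fell at an adjusted p below 0.05). Over all tested genes 67.9% were called, 33.4% as rises and 34.5% as falls, so a call by itself does not set these genes apart. The groups did not overlap between libraries for any of the 10 genes, and the same held for 83.3% of tested genes. The median log2 fold change was 0.24 over the 10 genes and 0.00 over all tested genes, and the median size without sign was 0.33 against 0.40.

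**Figure D1:**
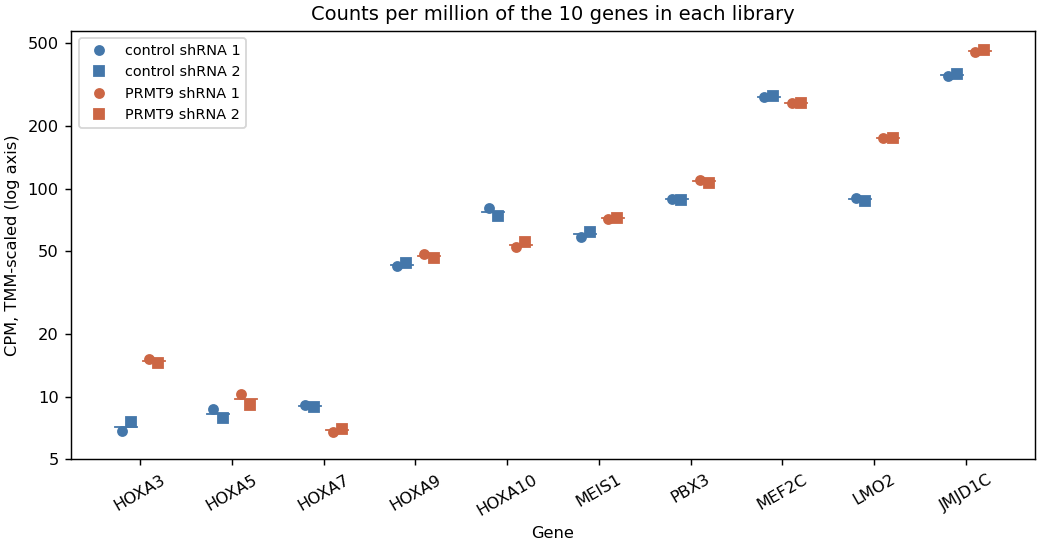
TMM-scaled CPM on a log axis for the 10 genes in each library (circle, replicate 1; square, replicate 2; short lines, group means). The groups do not overlap for any of the 10 genes, and HOXA3 and LMO2 show the widest gaps, from 7.18 to 14.8 CPM and from 89.0 to 174.8 CPM.

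HOXA3, a gene of the early-numbered side of the cluster that acts in head and neck patterning in the embryo, had 6.84 and 7.52 CPM in the control libraries and 15.1 and 14.5 CPM in the knockdown libraries. Both knockdown libraries lay far above either control. HOXA3 rose by 1.05 in log2 (SE 0.09, edgeR adjusted p = 5.20e-09), and 86.8% of tested genes moved by less. Called rises of 2-fold or more made up 9.96% of tested genes and such falls 3.77%, and HOXA3 was the 1 such rise among the 10, with 0 such falls. It was also the weakest of the 10 in the controls, with a mean of 1.67 RPKM (reads scaled to exon length and library total, as deposited), so it began from a low level.

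HOXA5, a regulator of myeloid differentiation that is often silenced by methylation in leukaemia, had 8.70 and 7.87 CPM in the controls and 10.3 and 9.07 CPM after knockdown. The groups did not overlap, but the gap between the nearest libraries was small beside the spread within each group. The log2 fold change was 0.22 (95% confidence interval 0.01 to 0.44, edgeR adjusted p = 0.0605). HOXA5 passed the threshold without control library 1 (0.29, edgeR adjusted p = 0.0311), without PRMT9 hairpin library 2 (0.32, edgeR adjusted p = 0.0337), with upper-quartile scaling (0.31, adjusted p = 0.0121) and with a filter at 1 CPM (0.26, adjusted p = 0.0338).

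HOXA7, a mid-cluster homeodomain gene, had 9.09 and 8.89 CPM in the controls and 6.79 and 7.01 CPM after knockdown. Both knockdown libraries were lower. It fell by 0.38 on the log2 scale (SE 0.10, edgeR adjusted p = 0.00242), a call that DESeq2 did not make (-0.39, adjusted p = 0.0764). In GENCODE release 29, 62.5% of the HOXA7 exon bases are also exon of HOXA-AS3 on the other strand, which had 3 to 5 counts per library.

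HOXA9, the HOXA gene most closely tied to KMT2A-fusion leukaemia and a partner of MEIS1 on DNA, had 42.6 and 43.7 CPM in the controls and 48.6 and 46.4 CPM after knockdown. The knockdown libraries were slightly higher. HOXA9 rose by 0.14 in log2 (SE 0.05, edgeR adjusted p = 0.0118), and 18.1% of tested genes moved by less. The call was lost without control library 1 (0.11, edgeR adjusted p = 0.0801), without PRMT9 hairpin library 1 (0.10, edgeR adjusted p = 0.134), with DESeq2 (0.13, adjusted p = 0.194) and in log2(RPKM + 1) with no filter (0.13, limma adjusted p = 0.105).

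HOXA10, the nearest upstream neighbour of HOXA9 and a regulator of myeloid progenitor growth, had 80.6 and 74.1 CPM in the controls and 52.4 and 55.1 CPM after knockdown. It moved opposite to HOXA9. It fell by 0.52 (SE 0.04, edgeR adjusted p = 2.58e-09), which was 1.44-fold lower, and the call held under every alternative tried. Per length, HOXA10 was above HOXA9 in both controls, where the ratio of HOXA9 to HOXA10 RPKM was 0.646 and 0.722, and below it in both knockdown libraries, where the ratio was 1.13 and 1.03. The HOXA10-HOXA9 read-through gene had 0 counts in every library, and its 765 exon bases all lie in exons of HOXA9 or HOXA10 (GENCODE release 29). A counter that drops reads in shared exons would give it 0 in any case. This 0 thus does not show whether read-through RNA was present. Same-strand overlap covers 15.9% of HOXA9 exon bases (the read-through and the MIR196B gene), 9.93% of HOXA10 (the read-through) and 9.24% of HOXA3. How reads in shared exons were counted is not given in the sources used here.

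**Figure D2:**
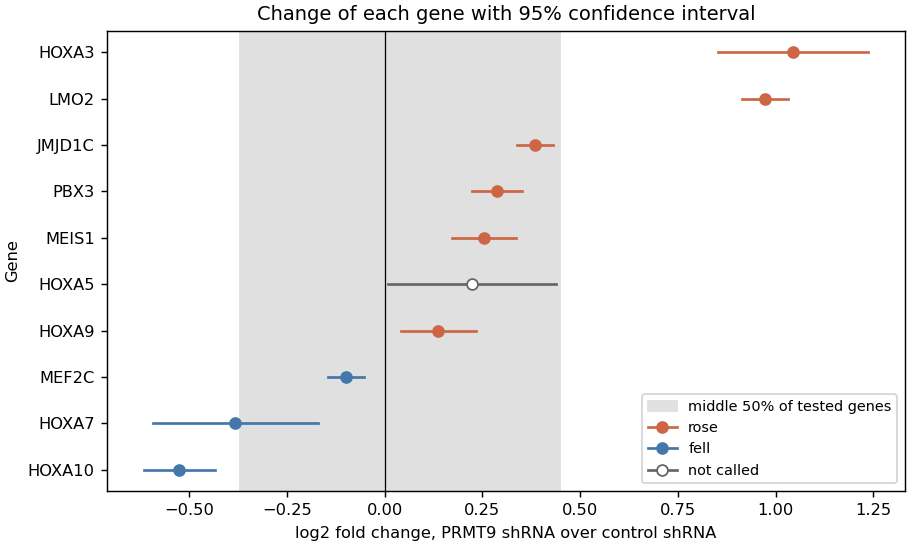
Log2 fold change (x axis, PRMT9 hairpin over control) of each of the 10 genes with its 95% confidence interval, and the middle 50% of all tested genes as a grey band. HOXA3 (1.05) and LMO2 (0.97) lie outside the band on the right and HOXA10 (-0.52) on the left, HOXA7 (-0.38) sits at its left edge, and HOXA5 is drawn open because it was not called.

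The 6 other HOXA protein genes were all tested and 0 were called by edgeR, where 67.9% of all tested genes were called. Of the 6, 0 had an unadjusted p below 0.05. DESeq2 and limma-voom also called 0, whereas 1 was called as higher with upper-quartile scaling and with the filter at 1 CPM, and 2 were without control library 1. HOXA13, the last HOXA gene, stood at 111.4 and 105.2 CPM in the controls and 112.9 and 113.7 CPM after knockdown (log2 fold change 0.06, 95% confidence interval -0.0018 to 0.13). It was the 1 called with upper-quartile scaling (0.15, edgeR adjusted p = 3.16e-04). HOXA11, between HOXA10 and HOXA13, stood at 28.4 and 28.2 CPM and then 28.7 and 27.5 CPM (-0.01, 95% confidence interval -0.12 to 0.10), and this sign turned with upper-quartile scaling (0.08). HOXA2 (0.24), HOXA4 (0.26) and HOXA6 (0.15) had between 15 and 124 counts per library, and their intervals are wide. The 0.26 of HOXA4 had an SE of 0.39.

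HOTTIP, a long non-coding RNA made from the opposite strand at the HOXA13 end and known to hold an activating histone methylation complex at the cluster, had 7.94 and 8.47 CPM in the controls and 13.5 and 13.4 CPM after knockdown. Both knockdown libraries were higher. It rose by 0.72 (SE 0.09, edgeR adjusted p = 7.18e-07). In GENCODE release 29, 1.69% of HOTTIP exon bases overlap HOXA13, and 18.4% overlap other entries on its own strand. Of the other RNA genes of the cluster, HOXA10-AS (0.08) and HOXA11-AS (0.26) were tested and not called. HOTAIRM1, HOXA-AS2 and HOXA-AS3 had at most 15 counts in any library. In GENCODE release 29, 62.3% of HOXA10-AS exon bases are also exon of genes on the other strand. It covers 13.9% of HOXA9 exon bases and 16.4% of those of HOXA10, and the strand setting of the counts is not given. MIR196B had no row of its own in the table.

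**Figure D3:**
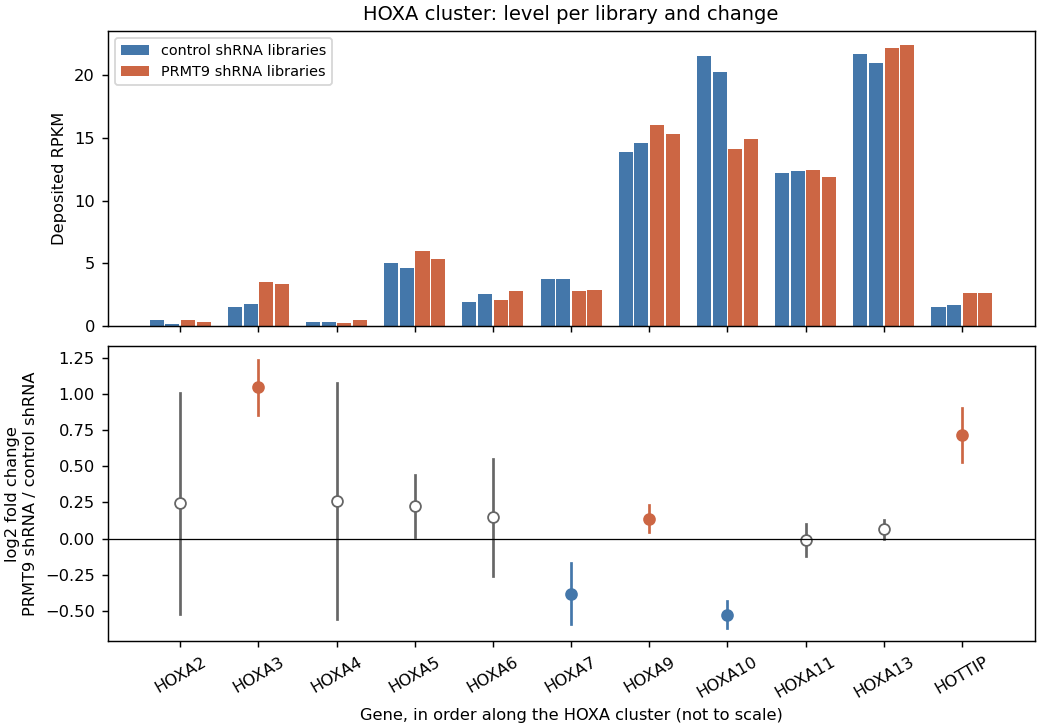
HOXA genes from HOXA2 on and HOTTIP in their order along the cluster. Upper bars give the deposited RPKM in each library, lower points the log2 fold change with its 95% confidence interval (filled where called). HOXA3 (1.05) and HOTTIP (0.72) lie high, HOXA7 (-0.38) and HOXA10 (-0.52) lie low, and HOXA2, HOXA4, HOXA6, HOXA11 and HOXA13 lie between -0.01 and 0.26.

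Summed over the 11 HOXA protein genes, the level per length moved little. It was 84.0 and 82.7 RPKM in the controls and 81.2 and 81.1 RPKM after knockdown, a small gap with no overlap. Taken singly, 83.3% of tested genes had no overlap in CPM either. The direction of so small a gap may depend on the scaling. Over genes, the median log2 fold change was 0.09 with upper-quartile scaling and 0 in the main test. The makeup moved more. HOXA10 made up 25.6% and 24.5% of that sum in the controls and 17.3% and 18.3% after knockdown. HOXA9 went from 16.5% and 17.7% to 19.7% and 18.9%, and HOXA3 from 1.87% and 2.14% to 4.30% and 4.15%. HOXA13 held the largest share in every library, from 25.3% to 27.5%. Only in the controls was HOXA10 close behind it, at 25.6% and 24.5% against 25.8% and 25.3%. Other genes overlap 9.93% of HOXA10 exon bases on the same strand and 0% of HOXA13. The order of HOXA10 and HOXA13 in the controls may thus depend on how shared exons were counted.

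**Figure D4:**
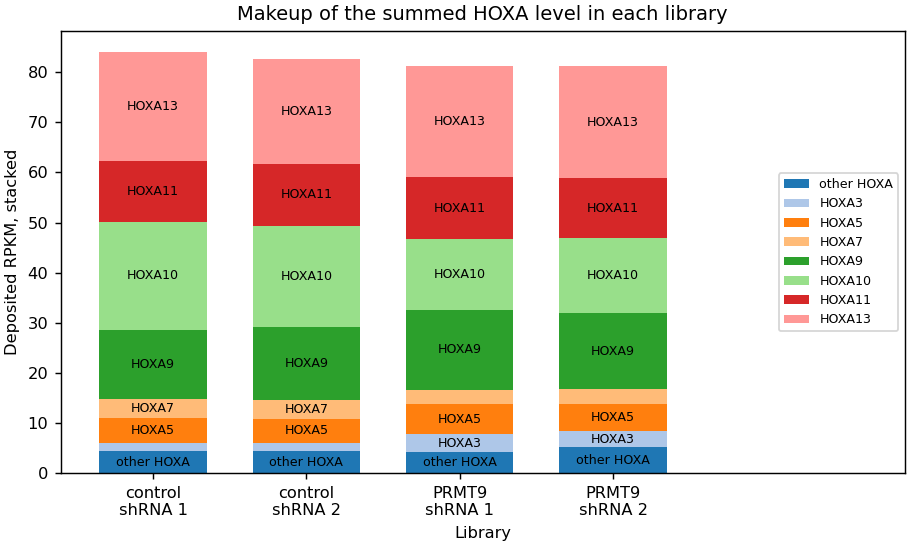
Deposited RPKM of the 11 HOXA genes stacked in each of the 4 libraries, with 4 low genes joined as other HOXA. The stacks reach 84.0 and 82.7 RPKM in the controls and 81.2 and 81.1 RPKM after PRMT9 knockdown, and the HOXA10 band is the one that narrows most.

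Genes beside the cluster were compared with it. Of 8 tested genes that flank it, 1 rose and 5 fell (median -0.24), beside 67.9% called over all tested genes. HNRNPA2B1, an RNA-binding protein gene, fell by 0.67, CBX3, a heterochromatin protein gene, fell by 0.37, and TAX1BP1, an autophagy receptor gene, fell by 0.23. SKAP2, a cytoplasmic adaptor gene, rose by 0.35. The fold changes inside the cluster (from -0.52 to 1.05) and those of its flanks (from -0.67 to 0.35) thus both ran in either direction. EVX1, the homeobox gene just past HOXA13, had 0 or 1 counts.

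The TALE cofactors rose modestly. MEIS1, which binds DNA with HOXA9 and speeds leukaemia onset with it, had 58.6 and 62.1 CPM in the controls and 71.5 and 72.4 CPM after knockdown, with the knockdown libraries above both controls. MEIS1 rose by 0.25 in log2 (SE 0.04, edgeR adjusted p = 9.61e-06). PBX3, the PBX family member most used with HOXA9 in leukaemia, had 89.4 and 88.6 CPM and then 110.3 and 107.0 CPM, again with no overlap. It rose by 0.29 (SE 0.03, edgeR adjusted p = 9.13e-08). The ratio of HOXA9 to MEIS1 RPKM was 2.62 and 2.54 in the controls and 2.45 and 2.31 after knockdown.

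The other TALE genes split, with 3 rises and 3 falls among 6 tested, where 33.4% of all tested genes rose and 34.5% fell. PBX2, a PBX3 paralog, rose by 0.59 from 76.9 to 115.6 CPM (edgeR adjusted p = 3.32e-12), more than PBX3 did. MEIS2, a MEIS1 paralog, fell by 0.41 from 86.0 to 64.7 CPM (edgeR adjusted p = 4.41e-09), opposite to MEIS1. PKNOX1, a MEIS relative that also pairs with PBX proteins, fell by 0.47, and IRX3 fell by 0.31. TGIF1 rose by 0.38 and TGIF2 by 0.12, both repressors of the same class, and DESeq2 did not call TGIF2 (adjusted p = 0.229). PBX4, MEIS3 and PKNOX2 had at most 10 counts in any library.

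LMO2, a LIM-only adaptor that bridges transcription factors on DNA in blood stem cells, had 90.6 and 87.4 CPM in the controls and 175.2 and 174.3 CPM after knockdown. The 2 libraries of each group nearly coincided. LMO2 rose by 0.97 in log2 (SE 0.03, edgeR adjusted p = 4.32e-16), which was 1.96-fold (95% confidence interval 1.88 to 2.04), and 84.7% of tested genes moved by less. Its 8 tested partners had a median log2 fold change of 0.02, with 1 rise and 1 fall, where 67.9% of all tested genes were called. LYL1, a basic helix-loop-helix partner, rose by 0.14 (edgeR adjusted p = 0.0115). The LYL1 call was lost with DESeq2 and without PRMT9 hairpin library 2. With DESeq2, 0 of the 8 were called as rises. GATA2, a zinc-finger partner under the 10 CPM set for naming, is named here because it was the 1 fall, a choice made with its values known. It had 4.63 and 4.52 CPM and then 2.75 and 2.65 CPM (-0.76, edgeR adjusted p = 2.50e-04). The GATA2 call was lost in log2(RPKM + 1) with no filter, where limma called 0 partners as falls. LDB1, TCF3, TCF12, SSBP2, SSBP3 and SSBP4 were not called, and TAL1 and GATA1 had at most 2 counts. With upper-quartile scaling, which moved all genes up by 0.09, 6 of the 8 were called as rises, with a median of 0.11.

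MEF2C, a MADS-box factor of myeloid and lymphoid progenitors, had 275.6 and 277.6 CPM in the controls and 258.6 and 258.2 CPM after knockdown. The libraries within a group lay close together, with an SD of 1.40 CPM in the controls and 0.306 CPM after knockdown. It fell by 0.10 (SE 0.02, edgeR adjusted p = 6.29e-04), and 13.1% of tested genes had a smaller change. The call was lost with upper-quartile scaling (-0.01, adjusted p = 0.708) and in log2(RPKM + 1) with no filter (-0.10, limma adjusted p = 0.0590). Of 11 tested relatives and regulators of MEF2 factors, 5 rose and 4 fell (median 0.09), beside 33.4% and 34.5% of all tested genes. The falls numbered 2 with DESeq2, with upper-quartile scaling, without control library 2 and without PRMT9 hairpin library 2, and 1 in log2(RPKM + 1) with no filter. The class IIa deacetylase genes HDAC5 and HDAC4, whose products repress MEF2 targets, rose by 0.54 and 0.47, and SIK2, a kinase gene of these deacetylases, rose by 0.48. CABIN1, a MEF2 corepressor gene, fell by 0.21, MARK3 fell by 0.26 and MEF2A fell by 0.15, a call lost with DESeq2 (adjusted p = 0.122) and with upper-quartile scaling (-0.06, adjusted p = 0.268).

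JMJD1C, of the KDM3 family of Jumonji chromatin proteins and needed for growth of KMT2A-fusion leukaemia, had 346.2 and 356.1 CPM in the controls and 454.6 and 462.4 CPM after knockdown. Both knockdown libraries were higher. It rose by 0.39 (SE 0.02, edgeR adjusted p = 8.08e-12). Both detected paralogs rose as well, and by more, where 33.4% of all tested genes rose. KDM3A, a histone H3 lysine demethylase gene, went from 100.5 and 100.3 CPM to 198.8 and 200.9 CPM (0.99, edgeR adjusted p = 1.05e-16), and KDM3B from 160.6 to 241.2 CPM (0.59, edgeR adjusted p = 5.83e-14). The third paralog, HR, had at most 4 counts.

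Per length, the order of the 10 genes differed between the groups, and within each group no neighbouring pair overlapped between libraries. In the controls JMJD1C stood first at 31.8 ± 1.18 RPKM (SD, n = 2), followed by LMO2 at 28.6 ± 0.235, MEF2C at 23.5 ± 0.526, HOXA10 at 20.9 ± 0.885, PBX3 at 19.6 ± 0.211, HOXA9 at 14.2 ± 0.516, MEIS1 at 5.52 ± 0.320, HOXA5 at 4.85 ± 0.259, HOXA7 at 3.73 ± 0.00513 and HOXA3 at 1.67 ± 0.139. After knockdown LMO2 stood first at 56.1 ± 0.116 RPKM and JMJD1C second at 41.4 ± 0.564. PBX3 (23.9 ± 0.473) passed MEF2C (21.9 ± 0.00890), HOXA9 (15.6 ± 0.489) passed HOXA10 (14.5 ± 0.543), and HOXA3 (3.43 ± 0.0894) passed HOXA7 (2.86 ± 0.0690). MEIS1 at 6.57 ± 0.0712 and HOXA5 at 5.67 ± 0.505 kept their places. In GENCODE release 29, genes on the other strand cover 62.5% of HOXA7 exon bases, 15.4% of HOXA3 and 0% of HOXA5. The places of HOXA7 and HOXA3 in this order may thus depend on how shared exons were counted.

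Genes published as downstream of HOXA9, MEIS1 or KMT2A fusions did not move as a block. Of 17 tested, 6 rose and 9 fell (median -0.07, or 0.02 with upper-quartile scaling), beside 33.4% and 34.5% of all tested genes. SOX4, a transcription factor gene, rose by 0.58, MBNL1, a splicing regulator gene bound by KMT2A fusions, by 0.29, and FLT3, a growth factor receptor gene, by 0.21. BCL2, whose product is the target of venetoclax, had 93.5 and 97.3 CPM in the controls and 48.9 and 46.0 CPM after knockdown. It fell by 1.01 (SE 0.04, edgeR adjusted p = 2.77e-14). MYC fell by 0.42 and CDK6, a cell cycle kinase gene, fell by 0.39. ERG, IGF1, TRIB2, EYA1 and PROM1 had at most 8 counts in any library.

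**Figure D5:**
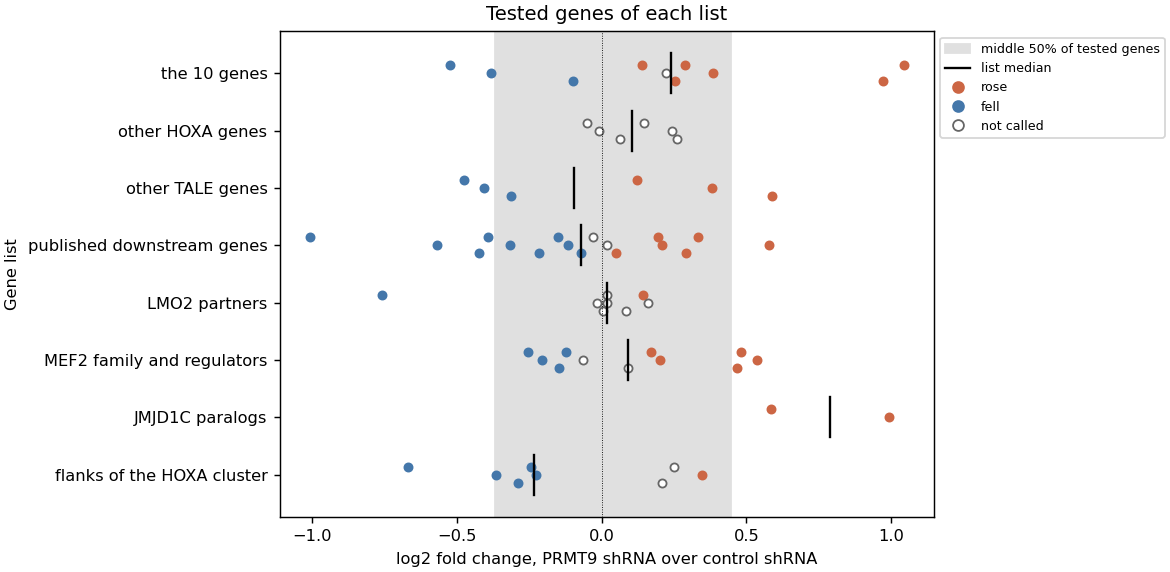
Log2 fold change (x axis, PRMT9 hairpin over control) of every tested gene of each list, with list medians as black lines and the middle 50% of all tested genes in grey. The 10 genes spread from -0.52 to 1.05, the 6 other HOXA genes are all drawn open because none was called, and the 2 tested JMJD1C paralogs lie at 0.59 and 0.99.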

How the data were processed

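Poly(A) RNA sequencing of 4 libraries (2 per group) was analysed. The deposited tables hold raw counts for each Ensembl gene and RPKM values, on GRCh38. Per the submitters' processing notes, Trimmomatic 0.39, STAR 2.7.2a and SAMtools 1.10 were used, while no source used here gives the counter, its strand setting or the annotation. The deposited RPKM equal count per exon length and library total, times 1 factor per library (0.979 to 1.01).

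The filter of edgeR 4.0.16 (filterByExpr, minimum count 10) kept 15193 of 57992 genes. Libraries were scaled by TMM and tested by robust edgeR quasi-likelihood fits in R 4.3.3, with Benjamini-Hochberg adjustment over all tested genes and calls at an adjusted p below 0.05. SEs come from the F statistic. CPM are TMM-scaled. The test was checked on simulated data. DESeq2 1.42.0, limma 3.58.1 (voom, and log2(RPKM + 1 or + 0.1), mean RPKM above 0.5 or no filter), other scalings and filters, the replicate block and leaving out each library were alternatives.

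The members, lists and rules were chosen with earlier results of these data known. Named genes are the 10, PRMT9, all HOXA, TALE and KDM3 genes of the lists, the 3 genes nearest to HOXA9 and to MEIS1 in profile, and up to 3 called genes per direction of each other list at 10 CPM or more with the lowest adjusted p. The promoter words were searched after the files were opened, and those marked were picked after their hits were seen. Some listed genes are not reported here. KRT8, ITGA2B, GATA2, the uncalled LMO2 partners, EVX1, HOXC genes and undetected genes are named outside that rule. Promoter sequences are from RefSeq (GRCh38.p14) and exon overlaps from GENCODE release 29.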

Additional observations from a re-analysis of the deposited data

How the results depend on the processing

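Across the 14 alternatives, no direction of the 10 genes or of PRMT9 turned. HOXA3, HOXA10, MEIS1, PBX3, LMO2 and JMJD1C kept their call in all of them, and HOXA5, HOXA7, HOXA9 and MEF2C crossed the threshold in the settings given above. The number of the 10 called ranged from 8 to 10 with 1 library left out, 5 to 7 as rises and 3 as falls, and was 7 with DESeq2 and in log2(RPKM + 1) with no filter. Over all genes, 9223 to 10057 were called with 1 library left out (4414 to 4981 rises, 4809 to 5182 falls), 7949 with DESeq2 and 10313 in the main test. The PRMT9 log2 fold change was -2.58 to -2.39 with 1 library left out. Left-out fits leave 1 library in a group, which is assumed to vary like the other group. With the replicate block, 10243 genes and 9 of the 10 were called. Same-numbered libraries did not deviate together (r = -0.03 across genes), so the numbers are not taken as pairs. Upper-quartile scaling called 5915 rises and 4440 falls, so rises were 57.1% of calls against 49.1% in the main test. The log2 fold changes of HOXA2 and HOXA4, at 15 to 39 counts per library, had SEs of 0.36 and 0.39, so their changes of 0.24 and 0.26 were not detectable at this depth.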

Other observations

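Outside the HOXA cluster, HOX expression in these cells was nearly limited to HOXC genes. Of 28 HOXB, HOXC and HOXD genes, 14 had 0 counts in all 4 libraries and 5 passed the filter, all of them HOXC genes. HOXC4, a homeodomain gene of lymphoid and myeloid progenitors, was the most abundant of these in CPM, with 19.6 ± 1.12 in the controls and 21.6 ± 0.0290 after knockdown (SD, n = 2; log2 fold change 0.14, 95% confidence interval 0.00 to 0.28, edgeR adjusted p = 0.0655). HOXC10 had 5.75 and 5.47 CPM on average (log2 fold change -0.07, or 0.02 with upper-quartile scaling), and HOXC6 had 3.22 and 3.27 CPM. By edgeR 0 of the 5 were called, where 67.9% of all tested genes were called. The 1 with an unadjusted p below 0.05 was HOXC4, which upper-quartile scaling called as higher (0.23, edgeR adjusted p = 0.00471). DESeq2 and limma-voom called 0, and 1 was called as higher with upper-quartile scaling, with the filter at 1 CPM and without control library 2.

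By distance between the 4 centred log2 CPM values, among 9051 other genes at 10 CPM or more, the profiles closest to HOXA9 were those of RPS21 (distance 0.00927), GNB5 (0.0110) and FAM32A (0.0137). Those closest to MEIS1 were NELFA (0.00888), ORC4 (0.0119) and CDIPT (0.0172). With 4 libraries in 2 groups such a profile holds little beyond the fold change itself.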
